A study of Cavia porcellus with 13 samples.

Results

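Skin taken at the site of a first tick bite was compared with unbitten skin of the same experiment. Guinea pigs were infested with ticks and skin RNA was sequenced, and 5 of the 13 libraries belong to this comparison: first exposure replicates 1, 2 and 3, and naive replicates 1 and 2, all with the title prefix CK1. The first exposure libraries are whole skin collected on day 4 after attachment of ticks to animals with no earlier infestation named in the labels. The naive libraries are skin without a bite and carry the same day. All animals of both groups are otherwise undescribed: the labels give no strain, sex, age, tick species or number of ticks. The labels also do not say that the libraries of a group came from separate animals, so the p-values below measure the spread between these libraries only.

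The other 8 libraries are bitten skin of saliva immune animals (3, prefix CK1), of animals bitten 2 times (2) or 3 times (2), and a single further naive library, replicate 3, the last 5 with the prefix EF19-5. They shared the estimate of the spread and are quoted only where a gene of the comparison is followed in them. Values are TPM, the share of a library's transcripts that a gene takes once its length is allowed for. A difference is first exposure minus naive as log2(TPM + 1), a scale on which changes of genes with low values come out too small. A gene was tested if it reached 1 TPM in at least 2 of the 5 libraries, which 14185 of 26855 genes did. A gene low in one group could pass through the other group alone, so the direction of such a gene was partly set by this filter.

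A feeding tick cuts into the dermis, anchors its mouthparts and releases saliva whose proteins counter clotting, complement, itch and the recruitment of white cells. The skin answers with clot and matrix repair, with cytokines and chemokines that bring in neutrophils, macrophages and lymphocytes, and with thickening of the epidermis. In animals bitten before, mast cells and basophils join this response, whereas a first bite meets mainly the innate part of it. A biopsy of guinea pig skin also holds hair follicles and sebaceous glands, subcutaneous fat and the thin sheet of skeletal muscle under the skin, so its RNA is a mixture of all of these. In such bulk samples, fewer cells of a type and less RNA per cell cannot be told apart.

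The defining genes of skin were present throughout. KRT14, a keratin of basal keratinocytes, stood at 8031, 11210 and 9815 TPM in first exposure replicates 1, 2 and 3 and at 8013 and 4287 TPM in naive replicates 1 and 2. Skeletal muscle genes made up 7.93%, 5.74% and 8.92% of all TPM in first exposure and 11.5% and 19.8% in naive skin, so naive replicate 2 held the most muscle. The 10 most abundant genes took 17.8% of that library and 7.15% to 10.3% of the other 4. On log2(TPM + 1) over the tested genes, the Pearson correlation was 0.9696 to 0.9787 between first exposure libraries, 0.9665 to 0.9668 between them and naive replicate 1, and 0.9247 to 0.9448 between them and naive replicate 2. Naive replicate 2 thus stood apart from the first exposure libraries more than naive replicate 1 did, and list medians are therefore followed by their values against naive replicates 1 and 2 alone, in that order and in brackets.

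Few single genes could be told from the spread between libraries. With limma and Benjamini-Hochberg adjustment, 5 of 14185 genes (0.0352%) passed an adjusted p of 0.05, of which 3 rose and 2 fell. At an unadjusted p under 0.05 there were 2015 genes (14.2%), of which 1348 were higher and 667 lower after a first exposure. The mean was higher after a first exposure for 64.3% of all genes, and the median difference over all genes was 0.13, or -0.01 against naive replicate 1 alone and 0.27 against naive replicate 2 alone. Scaling by median-of-ratios size factors brought that median to -0.01 and quantile normalization to -0.02, so list medians near 0.13 are no difference from the bulk of genes.

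ENSCPOG00000008260, which has no symbol in the deposited table, was the gene that told bitten from unbitten skin most plainly. It stood at 454.5, 569.1 and 498.2 TPM in first exposure replicates 1, 2 and 3 and was listed at 0 in naive replicates 1 and 2 (limma, adjusted p = 4.23e-09). It was also listed at 0 in naive replicate 3. The 7 other bitten libraries lay between 422.2 and 1365 TPM, so no bitten library of the series came near the unbitten ones. It passed in all 16 other fits that were tried.

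The other 4 genes that passed did so narrowly. ENSCPOG00000033173, also without a symbol, rose from 0.564 and 0.365 TPM in naive skin to 8.32, 7.67 and 7.72 TPM (log2 difference 2.61, SE 0.32, limma adjusted p = 0.0441). Vault, the short non-coding RNA of the vault ribonucleoprotein particle, rose from 0.55 and 0.442 TPM to 5.5, 6.17 and 5.79 TPM (2.19, SE 0.28, limma adjusted p = 0.0441). For both genes the groups lay far apart, but naive replicate 3 of the other experiment stood at 11.1 TPM for ENSCPOG00000033173 and 5.4 TPM for Vault, close to the bitten skin for Vault and above it for ENSCPOG00000033173. Without naive replicate 2 the adjusted p of each was 0.467.

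CEP131, a protein of the centriolar satellites around the centrosome, fell from 37.2 and 22.1 TPM in naive skin to 4.49, 6.47 and 3.79 TPM (-2.36, SE 0.31, limma adjusted p = 0.0477). ENSCPOG00000035456, without a symbol, fell from 6.24 and 8.35 TPM to being listed at 0 in all 3 first exposure libraries (limma adjusted p = 0.0342). Neither group overlapped the other, but naive replicate 3 stood at 5.27 TPM for CEP131, within the range of bitten skin, and at 2.36 TPM for ENSCPOG00000035456. Of the 16 other fits that were tried, only 7 called CEP131 and 10 called ENSCPOG00000035456. Short RNAs such as Vault are poorly captured by ordinary libraries, and their values are uncertain.

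Counted by separation alone, 3130 genes (22.1%) were higher in all 3 first exposure libraries than in both naive libraries and 2062 (14.5%) were lower in all 3. Counts without overlap in the gene lists below are to be read against these shares. Their counts at an unadjusted p under 0.05 are to be read against the 14.2% of all genes. Among those, 491 genes (3.46%) were higher and 279 (1.97%) lower by a mean log2 difference of 1 or more, so 63.8% of the widely separated genes were higher. That share depended on scaling and on naive replicate 2. It was 48.6% with median-of-ratios size factors (377 higher and 398 lower), 47.0% after quantile normalization (339 and 383) and 54.1% with the skeletal muscle genes removed (394 and 334). Without naive replicate 2 it was 56.1% (286 and 224), and without naive replicate 1 it was 78.7% (1747 and 474).

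**Figure D1:**
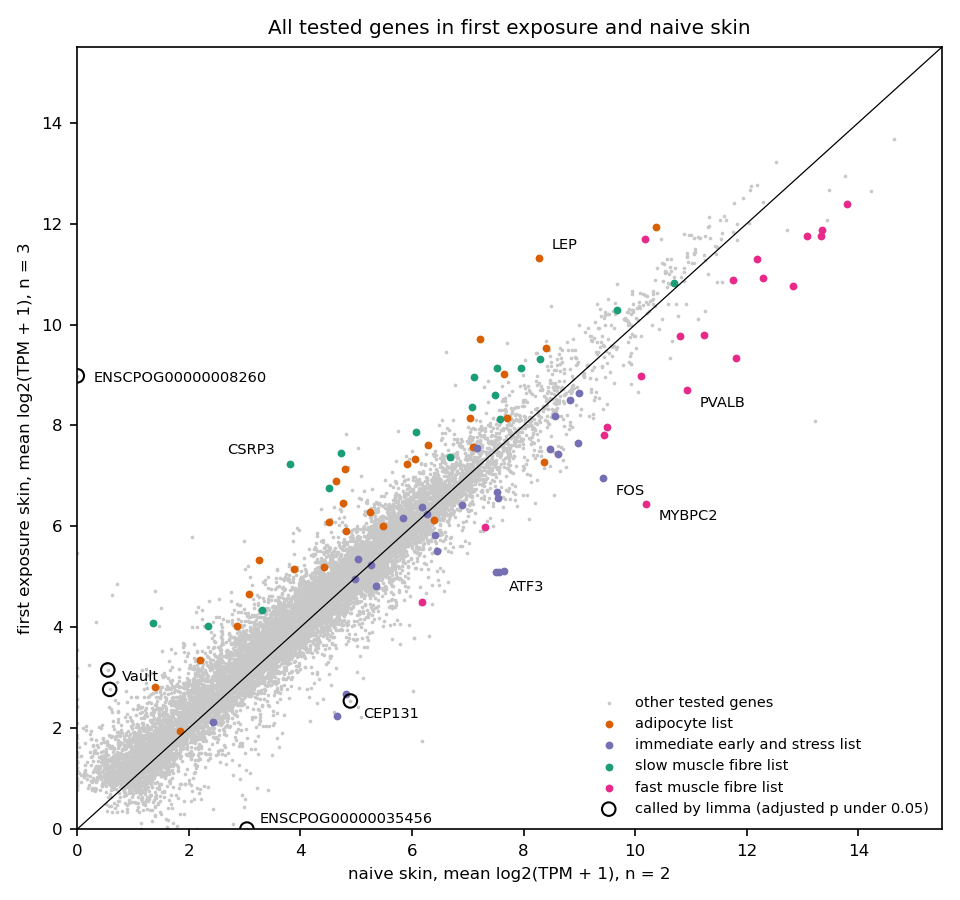
Each point is a tested gene, with its mean log2(TPM + 1) over 2 naive libraries across and over 3 first exposure libraries upward; the line marks equal values, black circles mark the 5 genes with an adjusted p under 0.05, and colours mark 4 gene lists. ENSCPOG00000008260 lies on the left edge, at 0 in naive skin, adipocyte and slow fibre genes lie mostly above the line, and fast fibre and immediate early genes mostly below it.

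The 14 genes with the widest gap upward, members of the skeletal muscle list left aside, included LEP, CERS4, CIDEA, CCL17 and SCRG1. Apart from Vault none of the 14 passed the adjusted p over all genes, so they are given as values. LEP, the fat hormone leptin, stood at 4288, 1377 and 2853 TPM after a first exposure and at 400.9 and 240.2 TPM in naive skin (3.04, SE 0.62, limma adjusted p = 0.143). CERS4, a ceramide synthase, stood at 133.6, 235 and 209 TPM against 42.65 and 23.47 TPM (2.53, SE 0.34, limma adjusted p = 0.0506). CIDEA, a lipid droplet protein, stood at 56.3, 34.7 and 31.0 TPM against 12.7 and 5.68 TPM (2.08, limma adjusted p = 0.143). The groups did not overlap for any of these 3 genes, and naive replicate 2 was the lowest library for each.

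CCL17, a chemokine that draws CCR4-bearing T cells, stood at 3.23, 2.52 and 9.26 TPM after a first exposure and was listed at 0 in both naive libraries (limma adjusted p = 0.223). It was also listed at 0 in naive replicate 3 and stood at 1.81 to 11.4 TPM in the 7 other bitten libraries, so all bitten libraries of the series were above all unbitten ones. SCRG1, a small secreted protein of mesenchymal cells, stood at 44.4, 35.2 and 30.4 TPM against 6.64 and 8.1 TPM (2.16, SE 0.33, limma adjusted p = 0.0856), with naive replicate 3 at 11.3 TPM. The groups did not overlap for either gene. MYBPH, a myosin-binding protein of muscle that is not on that list, had the widest gap of all and ranged from 5.71 to 56.7 TPM against at most 0.438 TPM in naive skin.

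The same gap held for genes of smaller range. GPX3, the extracellular glutathione peroxidase, stood at 2616, 956 and 909 TPM against 364 and 358 TPM. APOA5, an apolipoprotein that promotes triglyceride clearance, stood at 8.24, 3.42 and 3.38 TPM against 0.858 and 0.478 TPM. First exposure replicate 1 was the highest library for both genes. GNAL, a G protein alpha subunit, stood at 5.49, 8.6 and 2.39 TPM and was listed at 0 in both naive libraries. CHODL, a membrane lectin, GALNT15, a glycosyltransferase, WDR86, SNORD26, a short nucleolar RNA, and the called gene Vault completed the 14 genes, with all first exposure libraries above both naive ones. Naive replicate 3 lay within the first exposure range for GALNT15 and SNORD26, at 12.25 and 6.79 TPM.

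**Figure D2:**
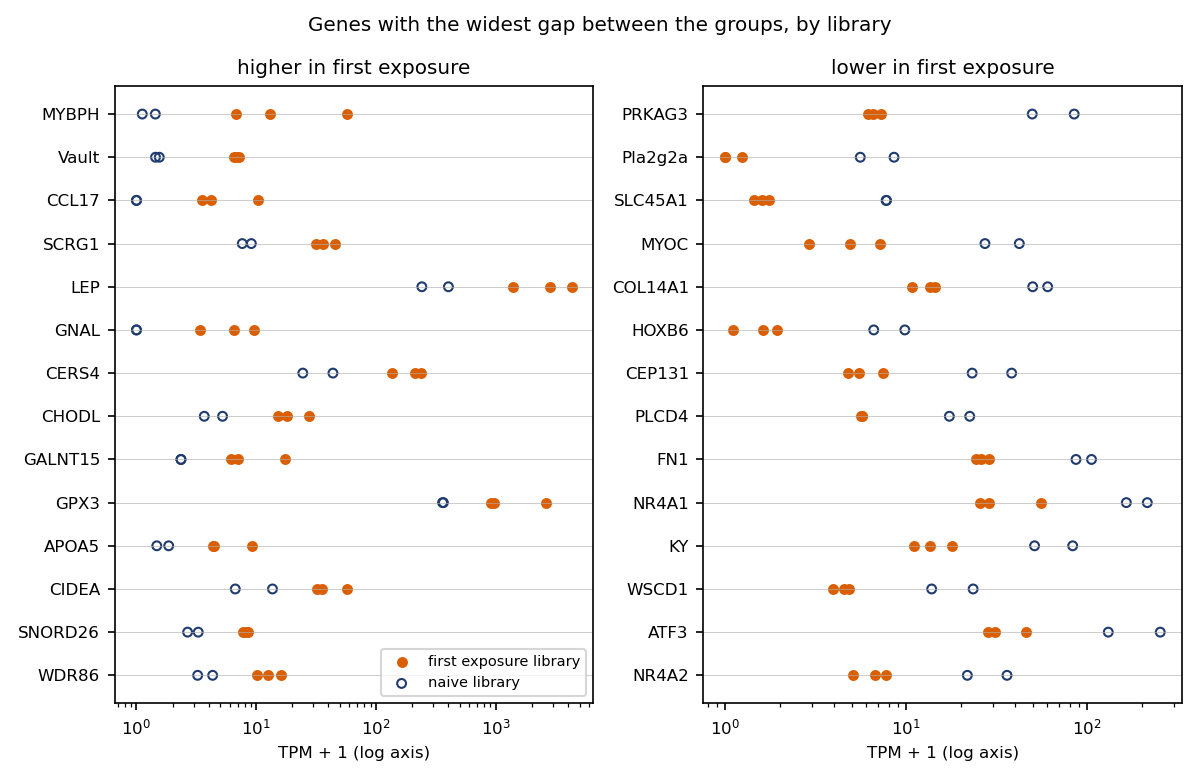
The 14 genes with the widest gap upward and the 14 with the widest gap downward, skeletal muscle list genes left out, as TPM + 1 on a log axis in each library; filled points are first exposure libraries and open points naive libraries. No gene shown has overlapping groups, because the gap chose them.

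The 14 genes with the widest gap downward included the matrix genes FN1 and COL14A1, the secreted protein MYOC, the phospholipase Pla2g2a and the muscle genes PRKAG3 and KY. FN1, the matrix protein fibronectin, stood at 27.8, 24.9 and 23.2 TPM after a first exposure and at 85.7 and 105 TPM in naive skin (-1.87, SE 0.58, limma adjusted p = 0.242). COL14A1, a fibril-associated collagen, stood at 12.5, 9.73 and 13.4 TPM against 49.0 and 59.5 TPM (-2.10, limma adjusted p = 0.21). MYOC, myocilin, stood at 6.21, 1.9 and 3.92 TPM against 26.2 and 41.2 TPM. Naive replicate 3 was close to the other naive libraries for all 3, at 99.3 TPM for FN1, 60.8 TPM for COL14A1 and 48.1 TPM for MYOC.

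Pla2g2a, a secreted phospholipase A2 with antibacterial activity, was listed at 0, 0.232 and 0 TPM after a first exposure and stood at 4.58 and 7.57 TPM in naive skin (limma adjusted p = 0.0987). Naive replicate 3 was at 5.94 TPM and the 7 other bitten libraries at 0 to 3.07 TPM, so each bitten library of the series was below each unbitten one. PRKAG3, the muscle regulatory subunit of the energy sensor AMPK, stood at 6.23, 5.15 and 5.57 TPM against 48.7 and 83.7 TPM (-3.29, limma adjusted p = 0.109). KY, a protein of muscle fibres, stood at 10.1, 12.5 and 16.8 TPM against 50.2 and 82.1 TPM. PRKAG3, which had the widest gap downward, and KY are muscle genes that were not on the skeletal muscle list. The low side also held the called gene CEP131, SLC45A1, a sugar transporter, PLCD4, a phospholipase C, WSCD1, HOXB6 and the nuclear receptors NR4A1 and NR4A2. Naive replicate 3 was below the first exposure libraries for SLC45A1, PLCD4 and WSCD1, at 0.209, 3.6 and 2.2 TPM. It was also below them for NR4A1 and NR4A2, at 20.7 and 2.5 TPM.

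Genes of fat stood higher as a group than any other list fixed by symbol. Of 28 tested adipocyte genes (38 entries, 32 in the table), 26 were higher after a first exposure, 23 without overlap, and the median difference was 1.28 against 0.13 over all genes. limma called 0 of them at an adjusted p under 0.05, and 24 had an unadjusted p under 0.05. ADIPOQ, the hormone adiponectin, stood at 1509, 506 and 756 TPM against 266 and 82.9 TPM. PPARG, the master transcription factor of fat cells, stood at 31.6, 23.2 and 19.4 TPM against 10.8 and 5.04 TPM. PLIN1, which coats the lipid droplet, stood at 229, 77.8 and 93.4 TPM against 41.8 and 13.6 TPM, and LIPE, hormone-sensitive lipase, at 252, 76.2 and 139 TPM against 39.0 and 18.2 TPM. Naive replicate 2 was the lowest library for all of these, and first exposure replicate 1 the highest.

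The summed share of the adipocyte list was 1.77%, 0.763% and 0.989% of all TPM after a first exposure and 0.460% and 0.305% in naive skin, with naive replicate 3 at 0.598%. The list median was 0.95 against naive replicate 1 alone and 1.70 against naive replicate 2 alone. UCP1, the heat-producing protein of brown fat, was listed at 0 in all 5 libraries. GPD1, a glycerol phosphate dehydrogenase that muscle also carries, went the other way, at 190, 111 and 170 TPM against 273 and 400 TPM. How much of the fat signal reflects the amount of fat in each biopsy was not tested.

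Sebaceous gland and lipid synthesis genes also stood high. Of 18 tested sebocyte genes, 17 were higher after a first exposure, 15 without overlap, with a median of 0.92 (0.51 against naive replicate 1 alone, 1.29 against naive replicate 2 alone), and 10 had an unadjusted p under 0.05. ELOVL5, a fatty acid elongase, stood at 224.3, 340.3 and 219 TPM against 116.5 and 66.6 TPM (1.53, SE 0.31, limma adjusted p = 0.143). AWAT1, a wax synthase of sebocytes, stood at 40.0, 64.2 and 49.1 TPM against 25.8 and 13.1 TPM. Its relative AWAT2 stood at 1.2, 4.63 and 2.5 TPM and was listed at 0 in both naive libraries. First exposure replicate 2 was the highest library for these 3 genes, whereas replicate 1 was the highest for fat.

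The 17 tested genes of epidermal barrier lipid synthesis were all higher in the mean, 9 without overlap and 9 at an unadjusted p under 0.05, with a median of 0.67 (0.37 and 1.16). SLC27A4, a fatty acid transporter needed for the barrier, stood at 66.1, 83.2 and 66.7 TPM against 47.3 and 29.5 TPM (0.92, limma adjusted p = 0.179). CYP4F22, which makes the omega-hydroxy acids of barrier ceramides, stood at 62.6, 132 and 90.0 TPM against 51.1 and 25.0 TPM. ELOVL4, which makes their very long chains, stood at 486, 1036 and 666 TPM against 396 and 228 TPM. In all 3 the groups were separate, with naive replicate 2 the lowest. Cholesterol synthesis stood closer to the bulk, with 15 of 19 genes higher, 3 without overlap, a smaller share than the 22.1% of all genes, and a median of 0.30 (0.0002 and 0.56); DHCR7, its last enzyme, stood at 128, 202 and 137 TPM against 92.2 and 53.5 TPM.

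Immune list medians were lower than that of fat, and limma called 0 members of any immune list. The monocyte and macrophage list had 16 tested genes, all higher in the mean and 9 without overlap, with a median of 0.84 (0.49 and 0.99 against naive replicates 1 and 2 alone). CD68, found on the lysosomes of macrophages, was at 94.9, 56.4 and 65.0 TPM against 32.9 and 18.4 TPM (1.47, limma adjusted p = 0.252). CD14, the lipopolysaccharide co-receptor, stood at 19.9, 12.3 and 18.3 TPM against 7.32 and 3.95 TPM. For CD68 and CD14 naive replicate 3 lay within the first exposure range, at 62.9 and 14.8 TPM. Of these 16 genes, 3 had an unadjusted p under 0.05, near the 14.2% of all genes.

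All 10 tested neutrophil genes were higher in the mean and 6 did not overlap, with a median of 0.85 (0.58 and 1.01) and 2 at an unadjusted p under 0.05. MMP9, Cxcr1 and Cxcr2 passed the filter through first exposure libraries alone, which partly set their direction. S100A9, a subunit of calprotectin that activated keratinocytes also make, stood at 212, 717 and 2231 TPM against 116 and 80.8 TPM (2.83, limma adjusted p = 0.253). MMP9, a gelatinase that neutrophils store, stood at 1.77, 3.44 and 4.96 TPM against 0.711 and 0.0926 TPM. The first exposure libraries were spread over a wide range, replicate 3 being the highest for both. For MMP9 naive replicate 3 lay within that range, at 2.56 TPM, and for S100A9 it lay below it, at 159 TPM. MPO, the myeloperoxidase of neutrophil granules, was listed at 0 in all 5 libraries.

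T cell genes were low. Of 20 list entries, 8 were tested, all were higher in the mean, 4 did not overlap and the median was 0.63 (0.39 and 0.86). CD3D, CD3G, CD247 and CD27 were under 1 TPM in both naive libraries and passed the filter through first exposure libraries alone. Their direction was therefore partly set by the filter. limma called 0 of them and 1 of 8 had an unadjusted p under 0.05, near the 14.2% of all genes. CD3E, a chain of the T cell receptor complex, stood at 2.8, 5.65 and 3.98 TPM against 1.88 and 0.729 TPM (1.17, limma adjusted p = 0.279). Only 2 cytotoxic and natural killer genes were tested, with a median of 0.46 (0.18 and 0.73). In the B cell and plasma cell list, 4 of 6 tested genes were higher, with a median of 0.58 (0.17 and 1.03), and 2 members separated the groups in opposite directions. POU2AF1, a B cell co-activator, stood at 3.5, 2.24 and 5.93 TPM against 0.763 and 0.861 TPM. MZB1, a chaperone of antibody-secreting cells, stood at 2.0, 1.9 and 1.53 TPM against 6.61 and 10.6 TPM (-1.75, limma adjusted p = 0.144). For MZB1 naive replicate 3 was below the first exposure libraries, at 0.857 TPM.

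Mast cell, basophil and eosinophil genes gave little to measure. Of 19 mast cell and basophil entries, 6 were tested, all were higher in the mean, 2 without overlap, with a median of 0.21 (0.05 and 0.39) and none at an unadjusted p under 0.05. CPA3 and GATA2 passed the filter through first exposure libraries alone, which partly set their direction. CPA3, a carboxypeptidase of mast cell granules, stood at 1.86, 1.97 and 1.23 TPM against 0.761 and 0.317 TPM, which are low levels. Its value in naive replicate 3 was 1.73 TPM, within the first exposure range. HDC, the enzyme that makes histamine, did not reach the level needed for a test. EPX, the eosinophil peroxidase, was listed at 0 in all 5 libraries, and the eosinophil list had 1 tested gene, Ccl11. Dendritic and Langerhans cell genes were higher in 6 of 8, 1 without overlap, with a median of 0.30 that was -0.0041 against naive replicate 1 alone and 0.66 against naive replicate 2 alone.

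Interferon and antigen presentation genes were also without a call by limma. All 13 tested genes of the interferon gamma and type 1 list were higher in the mean, 6 without overlap and 6 at an unadjusted p under 0.05, with a median of 0.63 (0.37 and 1.04 against naive replicates 1 and 2 alone). CXCL10, an interferon-induced chemokine for T cells, stood at 8.8, 19.97 and 57.2 TPM against 5.46 and 3.05 TPM (2.16, limma adjusted p = 0.299). IRF1, a transcription factor of that response, stood at 14.8, 25.2 and 47.2 TPM against 13.2 and 7.58 TPM. First exposure replicate 3 was the highest for both, and for IRF1 replicate 1 lay close to naive replicate 1. For IRF1 naive replicate 3 lay within the first exposure range, at 15.4 TPM, and for CXCL10 it lay below it, at 3.99 TPM. PSMB8, a subunit of the immunoproteasome, stood at 28.4, 44.4 and 56.9 TPM against 27.3 and 11.2 TPM. Ifng itself was listed at 0 in all 5 libraries.

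All 13 tested antigen presentation genes were higher in the mean, 5 without overlap and 4 at an unadjusted p under 0.05, with a median of 0.66 (0.31 and 1.06). HLA-DMA, which helps load peptides on class II molecules, stood at 30.5, 45.2 and 40.2 TPM against 23.9 and 15.6 TPM. Of the type I interferon list, 8 of 9 tested genes were higher, 3 without overlap, with a median of 0.44 (0.18 and 0.75). In the regulatory list, 4 of 6 tested genes were higher, with a median of 0.51 (0.27 and 0.75). CD274, the checkpoint ligand PD-L1, stood at 3.58, 1.59 and 4.32 TPM against 0.801 and 0.366 TPM (1.34, limma adjusted p = 0.179). LAG3, a checkpoint receptor of T cells, stood at 1.0, 0.776 and 1.17 TPM against 0.261 TPM in naive replicate 1 and was listed at 0 in naive replicate 2. Both checkpoint genes were separate between the groups but low, and both passed the filter through first exposure libraries alone. Naive replicate 3 stood at 4.06 TPM for CD274, within the first exposure range.

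Cytokine genes of the acute kind were low and mixed. In the inflammatory cytokine and chemokine list, 8 of 14 tested genes were higher, 2 without overlap each way, and the median of 0.19 (-0.16 and 0.49) turned to -0.03 after quantile normalization. Il1b stood at 0.624, 0.959 and 5.93 TPM against 1.6 and 0.9 TPM, with only first exposure replicate 3 above both naive libraries. Ccl2, a monocyte chemokine, stood at 5.63, 9.93 and 37.9 TPM against 28.5 and 14.2 TPM, again with replicate 3 alone above them. Tnf stood at 1.82, 3.33 and 3.45 TPM against 1.61 and 0.518 TPM. No single direction described these 3 cytokines.

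Of the type 2 list, 9 of 10 tested genes were higher, 4 without overlap, with a median of 0.75, though 0.25 against naive replicate 1 alone and 1.26 against naive replicate 2 alone. Il4 and IL13, the cytokines that define the type 2 response, were listed at 0 in all 5 libraries. Besides CCL17, CCL22, the other ligand of CCR4, stood at 26.1, 37.2 and 30.2 TPM against 21.4 and 6.77 TPM. Naive replicate 3 was above all of these for CCL22, at 52.4 TPM. CHI3L1, a chitinase-like protein, stood at 2.66, 7.18 and 51.0 TPM against 2.0 and 1.75 TPM. Its value in naive replicate 3 was 3.8 TPM, within the first exposure range. All 5 tested type 17 genes were higher, with a median of 0.59 (0.32 and 0.87) and none at an unadjusted p under 0.05.

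Complement and coagulation are known targets of tick saliva, and limma called 0 genes of either list. Of 12 tested complement genes, 11 were higher, 6 without overlap, with a median of 0.58 (0.34 and 0.79) and 2 at an unadjusted p under 0.05. These 2 of 12 were near the 14.2% of all genes. C3, the central component, stood at 99.5, 52.0 and 53.9 TPM against 28.9 and 14.9 TPM (1.60, limma adjusted p = 0.256). CFD, the factor D that fat cells secrete, stood at 7086, 2752 and 3108 TPM against 1580 and 1113 TPM, and in this it resembled the fat genes, with first exposure replicate 1 the highest. Of 14 tested coagulation and clot removal genes, 11 were higher in the mean, 5 higher and 1 lower without overlap, with a median of 0.44 that was 0.13 against naive replicate 1 alone and 0.83 against naive replicate 2 alone. Of these 14, 2 had an unadjusted p under 0.05, the share of all genes being 14.2%. TFPI2, a Kunitz-type protease inhibitor, stood at 5.86, 5.55 and 6.75 TPM against 2.09 and 1.53 TPM (1.33, limma adjusted p = 0.19).

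Itch, pain and eicosanoid genes were mixed. Of 11 tested itch and pain sensing genes, 10 were higher, 6 without overlap, with a median of 0.46 (0.23 and 0.72). OSMR, the oncostatin M and interleukin 31 receptor chain, stood at 30.9, 34.5 and 42.7 TPM against 18.5 and 11.1 TPM (1.26, limma adjusted p = 0.22). TRPV3, a warmth channel of keratinocytes, stood at 25.4, 31.2 and 23.1 TPM against 16.0 and 5.69 TPM, with naive replicate 3 above them all at 42.8 TPM. Of 18 tested eicosanoid genes, 14 were higher and the median was 0.35, but -0.09 against naive replicate 1 alone and 0.72 against naive replicate 2 alone. Ptgs2, the inducible cyclooxygenase, stood at 3.83, 9.81 and 6.41 TPM against 35.4 and 14 TPM (-1.68, limma adjusted p = 0.26). PTGES, the prostaglandin E synthase downstream of it, stood at 10.8, 17.97 and 15.4 TPM against 8.95 and 5.59 TPM, so the 2 enzymes of this pathway lay on opposite sides.

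The epidermis gave medians that hung on naive replicate 2. All 14 tested basal keratinocyte genes were higher in the mean, 5 without overlap, with a median of 0.60, which was 0.14 against naive replicate 1 alone and 1.09 against naive replicate 2 alone. For the 9 tested epidermal differentiation genes, 8 were higher and 1 without overlap, with a median of 0.75, which was 0.04 and 1.34 against the same libraries. KRT1, a keratin of the upper epidermis, stood at 4815, 9375 and 7517 TPM against 7214 and 3002 TPM, so the groups overlapped. CDSN, the adhesive protein corneodesmosin, stood at 1480, 1412 and 979 TPM against 1011 and 432 TPM and overlapped too.

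Of 22 activated keratinocyte entries, 7 were tested, and 6 of these were higher, 3 without overlap, with a median of 0.88 (0.26 and 1.5035 against naive replicates 1 and 2 alone). KLK13, a kallikrein protease of stratified epithelium, stood at 15.2, 38.2 and 51.2 TPM against 10.3 and 5.45 TPM (1.91, limma adjusted p = 0.179). The groups did not overlap for KLK13, but first exposure replicate 1 was close to naive replicate 1. Hair follicle genes stood near the bulk: 14 of 20 were higher, 2 without overlap, and the median of 0.15 turned to -0.02 with median-of-ratios scaling, and was -0.27 against naive replicate 1 alone and 0.65 against naive replicate 2 alone.

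Dermal matrix genes lay lower. Of 21 tested fibroblast and extracellular matrix genes, 18 were lower after a first exposure, 12 without overlap, with a median of -0.50 against 0.13 over all genes, and 6 had an unadjusted p under 0.05. Unlike the epidermal lists, the median was lower against both naive libraries, at -0.68 against replicate 1 and -0.34 against replicate 2. FBLN1, fibulin 1 of elastic fibres and basement membranes, stood at up to 25.5 TPM in the first exposure libraries and at 47.9 and 54.4 TPM in the naive ones (-1.17, limma adjusted p = 0.171), with naive replicate 3 at 43.7 TPM. FBN1, the microfibril protein fibrillin 1, stood at 15.7, 9.35 and 9.49 TPM against 30.2 and 41.5 TPM. LUM, the collagen-binding proteoglycan lumican, stood at 20.9, 18.9 and 12.7 TPM against 39.6 and 43.0 TPM. First exposure skin was below both naive libraries for all 3 genes.

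The main structural collagen did not share the gap. COL1A1, the alpha 1 chain of collagen I, stood at 757, 1292 and 689 TPM against 1405 and 716 TPM, with overlapping groups. SPARC, a matrix protein of remodelling tissue, stood at 1414, 1953 and 1352 TPM against 1257 and 778 TPM, above naive skin. Of 16 tested matrix remodelling enzymes, 15 were higher, 6 without overlap, with a median of 0.44 that was 0.14 against naive replicate 1 alone and 0.80 against naive replicate 2 alone. MMP12, the macrophage elastase, stood at 11.0, 7.42 and 41.4 TPM against 3.21 and 0.822 TPM (2.55, limma adjusted p = 0.248), with all 3 bitten libraries above both naive ones.

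Vessels, nerve and other cells of the dermis gave smaller medians. Of 21 tested endothelial genes, 18 were higher, 6 without overlap, with a median of 0.49 (0.13 and 0.78). Over all genes, 22.1% were higher without overlap. SOX18, a vascular transcription factor, stood at 17.1, 12.4 and 9.27 TPM against 6.43 and 3.95 TPM, and ACKR1, the chemokine receptor of venules, at 31.6, 17.8 and 19.6 TPM against 14.3 and 10.6 TPM. Nerve and Schwann cell genes had a median of -0.12 (-0.28 and 0.35), with 5 of 12 higher: ERBB3, a neuregulin receptor of Schwann cells that other skin cells share, stood at 73.9, 113 and 76.0 TPM against 57.2 and 26.2 TPM. Of 11 melanocyte genes, 9 were lower, 1 without overlap, with a median of -0.21 (-0.25 and -0.30). Smooth muscle and pericyte genes had a median of 0.13 (-0.21 and 0.48), which turned to -0.03 under both other scalings. Within it LMOD1, a smooth muscle actin nucleator, stood at 10.4, 14.3 and 12.9 TPM against 30.0 and 43.4 TPM, whereas RGS5, a pericyte gene, stood at 36.0, 33.6 and 24.3 TPM against 18.6 and 9.7 TPM. For LMOD1 naive replicate 3 was below the first exposure libraries, at 6.7 TPM.

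Immediate early and stress genes were high in the unbitten skin. Of 26 tested genes, 22 were lower after a first exposure, 10 without overlap, with a median of -0.56, and 9 had an unadjusted p under 0.05. Here naive replicate 1 was the extreme library: the median was -1.14 against it and -0.20 against naive replicate 2. FOSB, an AP-1 family transcription factor, stood at 33.2, 55.5 and 20.9 TPM against 364 and 109 TPM (-2.52, limma adjusted p = 0.232). ATF3, a stress-induced transcription factor, stood at 45.1, 29.9 and 27.3 TPM against 252 and 130 TPM (-2.41, limma adjusted p = 0.126). NR4A1, an orphan nuclear receptor induced within minutes of a stimulus, stood at 54.3, 27.7 and 24.6 TPM against 214 and 163 TPM (-2.45, limma adjusted p = 0.179), and its relative NR4A2 at 6.74, 5.71 and 4.07 TPM against 35.1 and 20.8 TPM. FOS varied more within the first exposure group, at 23.6, 398 and 193 TPM against 1039 and 451 TPM. Naive replicate 3 stood at 20.7 TPM for NR4A1 and at 35.8 TPM for ATF3, within the range of the first exposure libraries or below it.

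Heat shock genes lay lower by a small, even amount. Of 16 tested genes, 15 were lower, 9 without overlap, with a median of -0.26 (-0.39 and -0.27). FKBP4, a co-chaperone of HSP90, stood at 180, 179 and 186 TPM against 292 and 288 TPM (-0.67, SE 0.12, limma adjusted p = 0.129), with naive replicate 3 at 275 TPM. STIP1, which links HSP70 to HSP90, stood at 105, 91.4 and 109 TPM against 153 and 149 TPM, with naive replicate 3 at 153 TPM. HSP90AA1, the inducible HSP90, stood at 730, 620 and 736 TPM against 1000 and 943 TPM. The replicates of each group were close to each other for these chaperones.

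In the unfolded protein response list, 9 of 16 tested genes were higher and 7 lower, and the median of 0.09 (-0.0029 and 0.14) changed sign with scaling. DDIT3, the stress factor CHOP, stood at 17.9, 18.1 and 25.0 TPM against 43.5 and 50.6 TPM (-1.18, limma adjusted p = 0.143), and ATF4 upstream of it at 1144, 894 and 1336 TPM against 1779 and 2776 TPM. For ATF4 naive replicate 3 lay within the first exposure range, at 995.5 TPM. The glucocorticoid and clock list was split as well, 9 higher and 7 lower of 16, with a median of 0.13 (0.0084 and 0.28) that turned to -0.02 after scaling. FKBP5, a glucocorticoid-induced co-chaperone, stood at 37.1, 23.8 and 29.4 TPM against 14.3 and 11.2 TPM (1.16, limma adjusted p = 0.207). NR1D1, a repressor of the circadian clock, stood at 19.2, 31.2 and 22.1 TPM against 11.99 and 8.1 TPM (1.18, limma adjusted p = 0.173). Naive replicate 3 lay within the first exposure range for FKBP5 and NR1D1, at 34.4 and 19.9 TPM.

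Cell cycle genes lay lower after a first exposure. Of 29 tested genes, 27 were lower and 21 of them without overlap, with a median of -0.40 (-0.34 and -0.54 against naive replicates 1 and 2 alone), and 9 had an unadjusted p under 0.05. TYMS, the thymidylate synthase of DNA replication, stood at 24.3, 18.9 and 26.4 TPM against 32.4 and 47.3 TPM (-0.74, limma adjusted p = 0.22), with naive replicate 3 at 41.1 TPM. RRM2, a subunit of ribonucleotide reductase, stood at 14.3, 12.9 and 17.2 TPM against 22.6 and 28.5 TPM, and CDC20, which activates the anaphase-promoting complex, at 20.1, 17.7 and 25.8 TPM against 29.4 and 41.2 TPM. The differences were small, and the groups did not overlap for these 3 genes.

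Ribosomal protein genes lay higher, all 20 of 20 tested in the mean and 16 without overlap, with a median of 0.29 (0.33 and 0.27), of which 0.13 to 0.16 was left under the other scalings. RPS23, of the small subunit, stood at 935, 1325 and 1267 TPM against 660 and 746 TPM (0.73, limma adjusted p = 0.248). Ribosomal proteins have many near-identical pseudogenes, so their values are uncertain. Oxidative phosphorylation genes gave a median of -0.10, with 20 of 25 lower and 1 without overlap, and the sign turned against naive replicate 1 alone (0.06 and -0.20).

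Of the hypoxia list, 12 of 17 tested genes were higher, 7 without overlap, with a median of 0.40 (0.22 and 0.62). ANGPTL4, an inhibitor of lipoprotein lipase that fat and keratinocytes make, stood at 16.5, 12.9 and 22.8 TPM against 5.25 and 2.57 TPM (1.93, SE 0.32, limma adjusted p = 0.109). For ANGPTL4 naive replicate 3 stood at 18.98 TPM, within the first exposure range. PFKFB3, a regulator of glycolysis, stood at 40.2, 50.7 and 38.8 TPM against 21.0 and 8.81 TPM. The glycolytic enzymes of the list, which muscle also makes in quantity, went the other way: PGK1 stood at 137, 146 and 170 TPM against 230 and 300 TPM, and LDHA at 379, 355 and 490 TPM against 660 and 1722 TPM. Naive replicate 2, the library with the most muscle, was the highest for both enzymes.

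**Figure D3:**
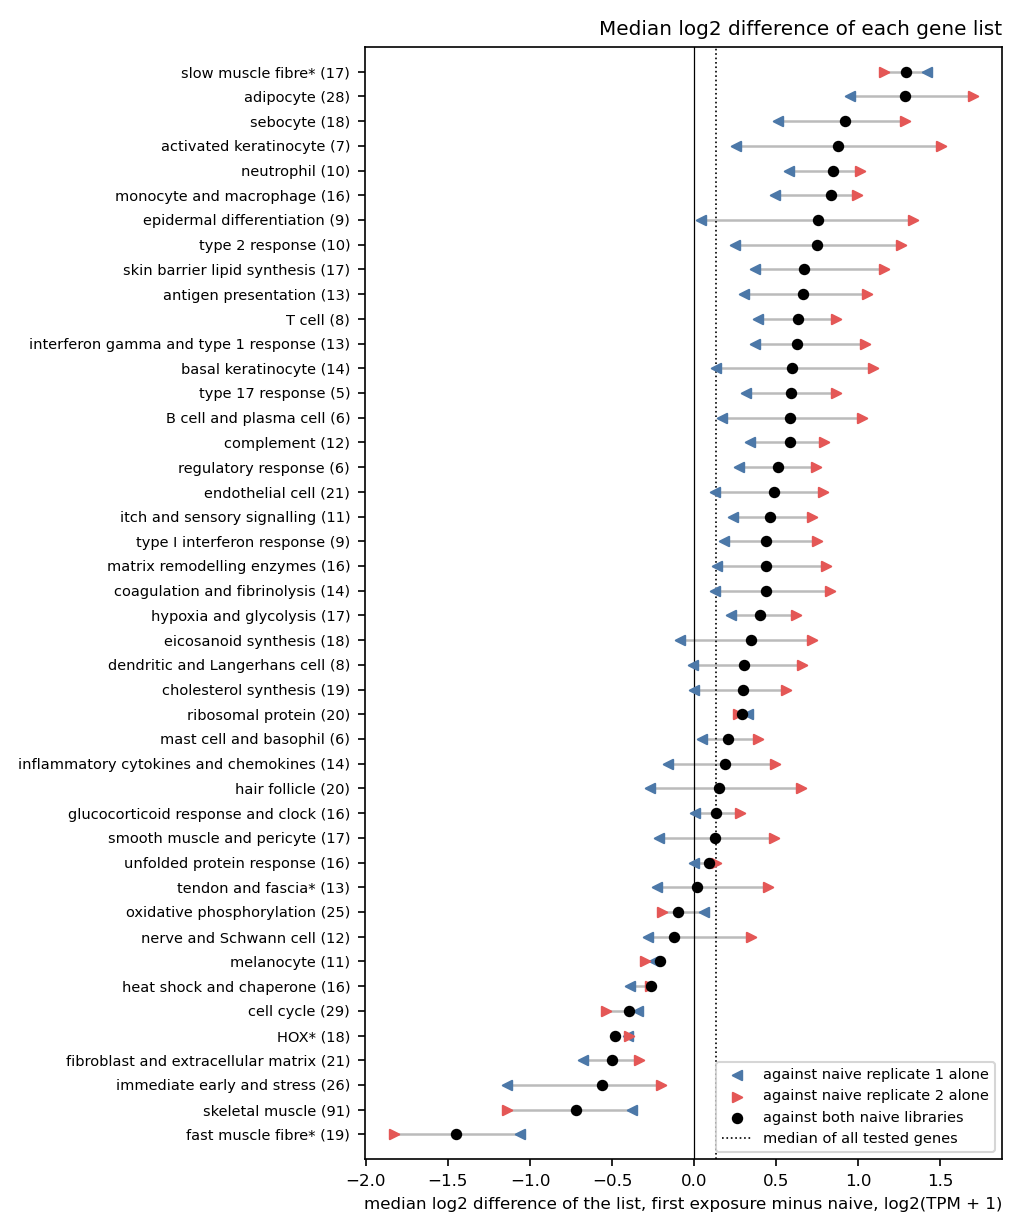
Median log2 difference, first exposure minus naive, of the tested members (number in brackets) of each gene list with at least 5 of them; circles are against both naive libraries and triangles against each alone, the dotted line is the median of all genes, 0.13, and asterisks mark lists drawn up after values were seen. Fat genes stand highest among the other lists at 1.28, while matrix, cell cycle and immediate early genes stand below 0 against each naive library.

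Skeletal muscle genes lay mostly lower. Of 91 tested skeletal muscle genes, 69 were lower after a first exposure and 22 higher, with 46 and 15 without overlap and a median of -0.72 (-0.38 and -1.14). Lists of slow and fast fibre genes were drawn up after these values were seen, so they describe and support nothing. All 17 slow fibre genes were higher in the mean, 14 without overlap, with a median of 1.29 (1.42 and 1.16), and 18 of 19 tested fast fibre genes were lower, all 18 without overlap, with a median of -1.45 (-1.06 and -1.83). CSRP3, a muscle LIM protein rich in slow and cardiac muscle, stood at 248, 60.4 and 220 TPM against 11.8 and 14.2 TPM. MYH7, the slow myosin heavy chain, stood at 568, 392 and 789 TPM against 177 and 190 TPM, and MYL2, its light chain, at 480, 319 and 793 TPM against 134 and 140 TPM. The slow genes were higher after a first exposure although those libraries held less muscle RNA.

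MYBPC2, the fast myosin-binding protein C, stood at 82.0, 75.6 and 103 TPM against 877 and 1554 TPM (-3.74, limma adjusted p = 0.143). PVALB, the calcium buffer parvalbumin of the fastest fibres, stood at 561, 416 and 308 TPM against 1472 and 2568 TPM (-2.22, limma adjusted p = 0.143). ACTN3, the fast fibre actinin, stood at 696, 491 and 774 TPM against 2671 and 4846 TPM. The single fast fibre gene that went the other way was MYH1, a fast myosin heavy chain, at 3615, 2830 and 3489 TPM against 839 and 1597 TPM; the myosin heavy chains are near-identical copies, so their values are uncertain. ENSCPOG00000031719, a gene without a symbol picked after its values were seen, stood at 190.7, 247.3 and 416.8 TPM against 7283 and 12490 TPM (-5.14, SE 1.04, limma adjusted p = 0.143).

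The summed TPM of the slow genes was 23.3%, 19.46% and 26.9% of that of the fast genes after a first exposure, and 5.96% and 4.59% in naive replicates 1 and 2. Naive replicate 3 of the other experiment stood at 8.07%. The 7 other bitten libraries stood at 10.6% to 39.3%, so in this ratio all 10 bitten libraries were above all 3 unbitten ones.

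**Figure D4:**
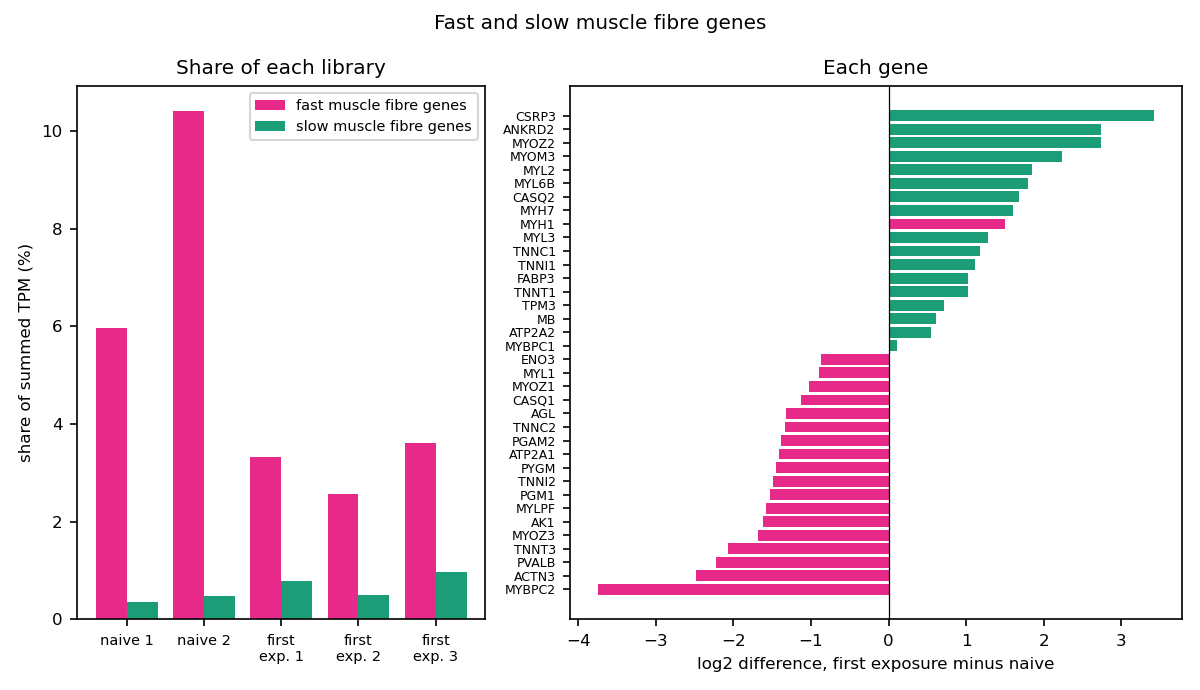
On the left, bars give the percent of all TPM taken by fast and by slow muscle fibre genes in each of the 5 libraries; on the right, bars give the log2 difference, first exposure minus naive, of each of the 19 fast and 17 slow fibre genes. Fast fibre genes take 5.96% and 10.4% of naive libraries and 2.56% to 3.61% of first exposure libraries, and MYH1 is the single fast fibre gene to the right of 0.

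Genes of positional identity also separated the groups within this experiment. HOX genes mark the place along the body axis from which a patch of skin comes, and their list too was drawn up after values were seen. Of 18 tested HOX genes (39 entries, 30 in the table), 14 were lower after a first exposure, 10 without overlap, with a median of -0.48 (-0.40 and -0.40). HOXB6 stood at 0.929, 0.104 and 0.625 TPM against 8.83 and 5.62 TPM, and naive replicate 3 was at 10.03 TPM. HOXC10, of the posterior part of the cluster, stood at 0.735, 0.676 and 2.15 TPM against 4.85 and 7.09 TPM, and HOXC6 at 6.04, 8.69 and 4.99 TPM against 18.1 and 17.9 TPM. The 4 others were higher, 2 of them without overlap. Those 2 were anterior genes: HOXA2 stood at 2.5, 3.0 and 2.08 TPM against 1.1 and 1.48 TPM, and HOXB2 at 15.1, 13.6 and 11.1 TPM against 9.26 and 8.38 TPM. A split between anterior and posterior genes was not tested. All 3 first exposure libraries were above naive replicate 3 for 6 of the 18 genes and below it for 8. These shares were near the 28.5% and 38.1% of all genes, so the list did not stand apart against that library. The body site of each biopsy is not given in the labels, and the part of these genes' differences in the other results was not tested. A tendon and fascia list drawn up in the same way had a median of 0.02 (-0.23 and 0.45), with 7 of 13 genes higher and 6 lower, and CILP, a cartilage and fascia protein, stood at 16.1, 22.9 and 23.9 TPM against 48.5 and 54.4 TPM.

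With the skeletal muscle score, the mean log2(TPM + 1) of the muscle list, entered as a covariate, limma called 97 of 14185 genes (0.684%), 50 higher and 47 lower, against 5 without it. All 5 of those were among the 97, and 17 of the 97 were on the muscle lists. At equal muscle score the slow fibre median was 1.98 and the fast fibre median -0.9974, the adipocyte median 1.24, the sebocyte median 0.77, the macrophage median 0.79 and the fibroblast median -0.46. The score itself includes slow and fast fibre genes, among them MYH7, MYL2, CSRP3, MYBPC2 and ACTN3. Values of such genes in that fit are not independent of the score and support nothing. Among the genes above, CERS4 (limma adjusted p = 0.0352), SCRG1 (0.041), ELOVL5 (0.0457), ANGPTL4 (0.0457), CSRP3 (0.0352) and MYL2 (0.0457) also passed upward in that fit. PRKAG3 (0.0457), Pla2g2a (0.0347), KY (0.0347), HOXB6 (0.0441), FKBP4 (0.0394), LMOD1 (0.0441), MZB1 (0.0457), PLCD4 (0.0352) and WSCD1 (0.0441) also passed downward. The fat genes LEP (limma adjusted p = 0.0764), CIDEA (0.0672) and ADIPOQ (0.161) did not.

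Naive skin of the other experiment gave another reference for bitten skin, looked at after these values were seen. There the 4 bitten libraries were all above naive replicate 3 for 2366 genes (16.7%) and all below it for 2185 (15.4%), with a median difference of 0.00 over all genes. Of the 14 genes with the widest gap upward after a first exposure, 3 were above naive replicate 3 in all 4 and 2 were below it in all 4. Of the 14 with the widest gap downward, 2 were above and 6 below. Fat genes did not stand apart there, with 3 of 28 above, 4 below and a median of -0.04, and cell cycle genes lay the other way, with 8 of 29 above, 1 below and a median of 0.12. Interferon gamma genes were above in 9 of 13 with a median of 0.65, antigen presentation genes in 10 of 13 with a median of 0.48, and fast fibre genes were below in 18 of 19. Those animals had been bitten 2 or 3 times, so the number of bites and the experiment differ together and cannot be told apart.

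**Figure D5:**
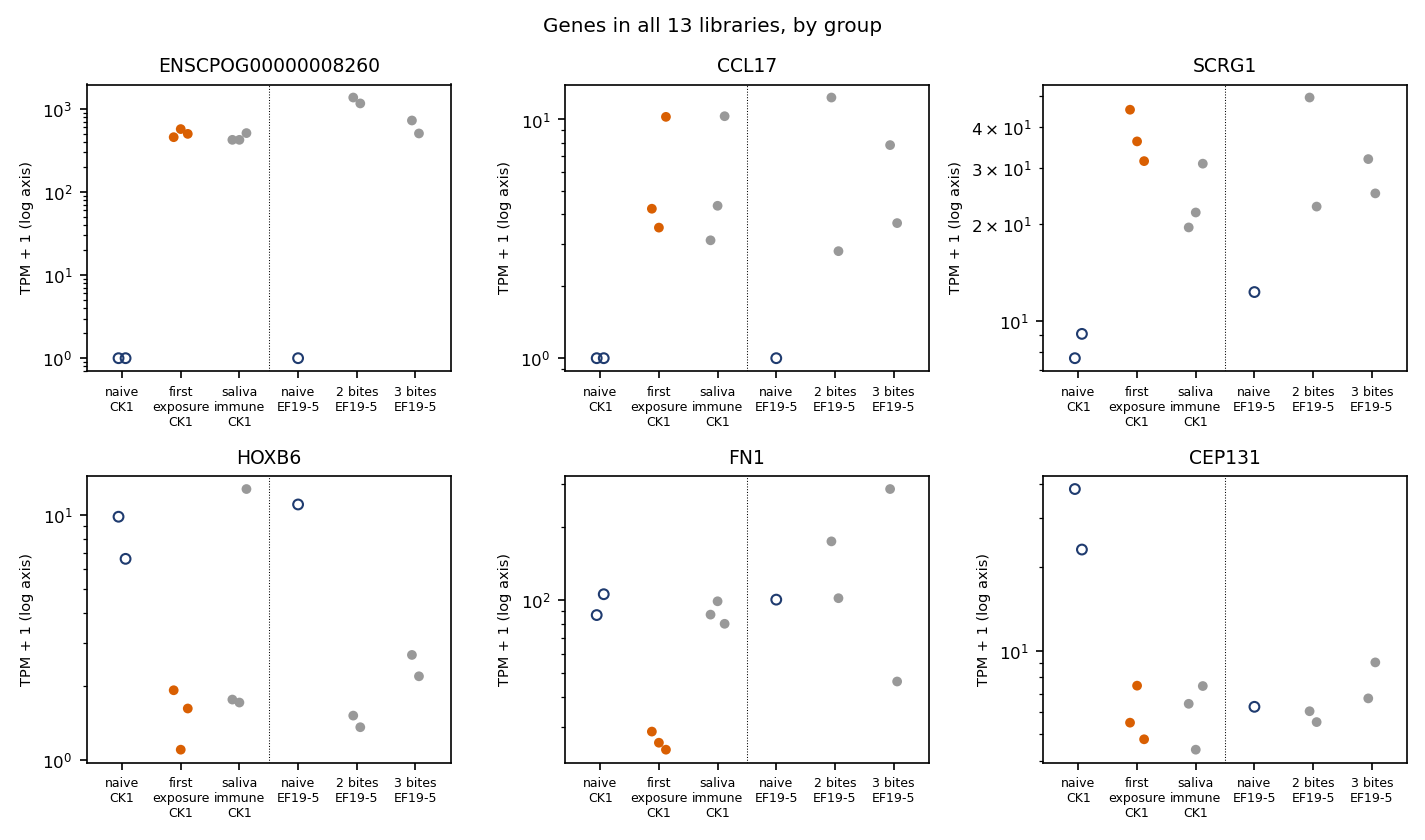
TPM + 1 on a log axis of 6 genes in all 13 libraries, by group, open points unbitten and orange points first exposure skin; the dotted line divides the experiments. ENSCPOG00000008260 and CCL17 are at 0 TPM in each unbitten library, SCRG1 is lowest in unbitten skin, HOXB6 is low in bitten skin but for 1 saliva immune library, and FN1 and CEP131 split the groups only within some of the comparisons.

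FN1 stood lower after a first exposure than in all other bitten libraries of the series. In saliva immune bitten skin of the same experiment it was at 86.05, 97.77 and 78.8 TPM, near the naive 85.7 and 105 TPM. Against 27.8, 24.9 and 23.2 TPM after a first exposure, the skin of animals bitten 2 times stood at 173 and 101 TPM and that of animals bitten 3 times at 285 and 45.2 TPM. The lowest value of the animals bitten 2 or 3 times was above the highest first exposure value, and their libraries are of the other experiment. LEP, at 4288, 1377 and 2853 TPM after a first exposure, was at 1267 TPM in naive replicate 3; both naive libraries of its own experiment were lower. Naive replicate 3 is a single library of the other experiment. Set against it, all 3 first exposure libraries were above it for 28.5% of all genes and below it for 38.1%. They were above it for 21 of 28 fat genes, below it for 20 of 21 matrix genes and below it for 26 of 29 cell cycle genes. Sebocyte genes were above it in 12 of 18 and endothelial genes in 18 of 21. Interferon gamma genes were above it in 8 and below it in 0 of 13, and antigen presentation genes in 10 and 1 of 13. Basal keratinocyte genes were above it in 10 and below it in 1 of 14. Some other lists that stood higher in the main comparison did not keep that side. Macrophage genes were above it in 2 and below it in 7 of 16, and barrier lipid genes in 4 and 10 of 17. Epidermal differentiation genes were above it in 0 and below it in 8 of 9.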

How the data were processed

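The 13 libraries are of skin RNA purified on Qiagen RNeasy columns, per the labels' protocols. The values are TPM as the authors deposited them, with 26855 genes and a sum of 1000000 in each library. The submitters' processing notes list Trimmomatic, StringTie and DESeq but neither their versions nor what each did. Aligner, build and annotation: not given in the sources used here. TPM keeps no depth, so the depth of each library, and the counting error of a value, are unknown. A TPM is also a share: more of an abundant tissue lowers all other genes. No symbol stands beside 8601 genes, which are printed by identifier, with no coordinates or sequences.

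Genes with at least 1 TPM in at least 2 of the 5 libraries compared (14185, of which 2514 have no symbol) were analysed on log2(TPM + 1). Tests used limma 3.58.1 (R 4.3.3, with the data.table package at version 1.17.8), with Python 3.11.15, pandas 2.3.3 and numpy 2.4.6 for summaries. A model of 5 groups plus experiment, which was read from the title prefix, was fitted to all 13 libraries (7 residual degrees of freedom), with empirical Bayes, an intensity trend and two-sided Benjamini-Hochberg adjustment over all tested genes. The scripts were tested on simulated data. The members and lists were chosen with earlier results of these data known. The 43 gene lists hold 1010 entries, of which 778 are among the deposited genes and 670 were tested, so tested members are not all members; 4 further lists (slow and fast muscle fibre, tendon and fascia, HOX) and the comparison with the other experiment's naive library were added after values were seen.

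The genes named are those called; up to 14 each way with a symbol, a mean of at least 5 TPM in the higher group and no place on the skeletal muscle list, ranked by the gap between the groups; in each list the 4 genes of smallest p; and a fixed panel of cytokine and tissue marker genes. Others were picked after their values were seen. Alternatives were a pseudocount of 0.1, other filters (none, 5 TPM), 2 scalings, removal of or adjustment for skeletal muscle genes, fewer libraries in the fit, array weights, no trend, and leaving out each library.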

Additional observations from a re-analysis of the deposited data

Results flagged for a closer look

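ENSCPOG00000008260 was also present in bitten skin that the comparison did not use. Its lowest value among the 7 other bitten libraries was 422.2 TPM and its highest 1365 TPM, while the unbitten naive replicate 3 of the same series was listed at 0.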

How the results depend on the processing

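Of the 5 called genes, ENSCPOG00000008260 passed in all 16 other fits, and the other 4 passed in 7 to 10 of them. The number of called genes was 12 with only the 5 libraries compared, 2 with no filter on low values and 97 with the skeletal muscle score as covariate, and lay between 1 and 2 when a single library was left out; under the other settings it was 4 to 7. The number of genes apart by a mean log2 difference of 1 or more without overlap was 770, and lay between 510 (without naive replicate 2) and 2221 (without naive replicate 1) when a library was left out. Of the 190 named genes, few turned sign: GATA2 to -0.11 with quantile normalization; Ccl11 to -0.031 with median-of-ratios scaling, -0.12 with quantile normalization and -0.0073 with muscle genes removed; CD207 to -0.030 with the muscle covariate. When single libraries were left out, the log2 difference ranged from -0.25 to 0.72 for HPGDS, -0.30 to 0.49 for Ccl11, -0.033 to 0.80 for FLT3, -0.029 to 1.46 for IL1RN, -0.12 to 1.39 for KRT74, -0.32 to 0.73 for Il1b, -0.23 to 0.79 for CD207, -0.049 to 1.22 for KRT1 and -0.68 to 0.29 for COL1A1. The cause was not tested. List medians moved in 74 cases and kept their value within the spread in 439. No paired analysis was possible because the labels match no first exposure library to a naive library. Leaving out a naive library leaves 1, assumed to vary like the other groups. Depth is unknown, so low values carry an error that cannot be given.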

Other observations

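Single genes outside the lists and the widest gaps, picked after their values were seen, also separated the 5 libraries without passing the adjusted p. LCAT, the enzyme that esterifies cholesterol in lipoproteins, stood at 21.3, 20.9 and 16.7 TPM after a first exposure and at 7.34 and 6.53 TPM in naive skin (1.37, SE 0.21, limma adjusted p = 0.0856). PRSS22, a tryptase of epithelia, stood at 29.0, 38.0 and 35.4 TPM against 13.2 and 9.02 TPM (1.55, SE 0.26, limma adjusted p = 0.109). SOX12, a transcription factor of the SoxC group, stood at 8.53, 3.76 and 4.26 TPM against 21.1 and 43.9 TPM (-2.34, SE 0.39, limma adjusted p = 0.109). For all 3 the groups lay apart.

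CHAC1, a glutathione-degrading enzyme of the ATF4 pathway, stood at 409, 242 and 148 TPM against 150 and 63.3 TPM, with overlap, although ATF4 and DDIT3 of that pathway stood lower after a first exposure. SOCS1, a brake on cytokine signalling, stood at 12.1, 11.3 and 18.1 TPM against 7.62 and 9.34 TPM.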
